A study of Sus scrofa with 22 samples.

Results

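The enzymes described here oxidise cholesterol and its oxysterols and carry out the steps that turn them into bile acids. The set holds 10 genes chosen by name for their roles: CYP46A1, CYP27A1, CYP7B1, CYP7A1, CYP39A1, HSD3B7, CH25H, AMACR, ACOX2 and SLC27A5. Of these, 9 of 10 matched an Ensembl gene in the count tables, which hold 31907 genes. They were ENSSSCG00000002510 (CYP46A1), ENSSSCG00000016199 (CYP27A1), ENSSSCG00000022092 (CYP7B1), ENSSSCG00000006238 (CYP7A1), ENSSSCG00000001718 (CYP39A1), ENSSSCG00000032369 (HSD3B7), ENSSSCG00000010449 (CH25H), ENSSSCG00000011477 (ACOX2) and ENSSSCG00000031449 (SLC27A5). AMACR, a racemase of the bile acid side chain, was not matched to an identifier and was not analysed here. Of the 9 matched genes, 7 passed the filter on low counts and were tested among 14994 genes, and CYP7A1 and CH25H did not pass it.

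The samples were cerebella of 22 piglets (Sus scrofa). Surgery took place on day 8 of life, and the animals were followed for 3 weeks. The 11 BDL piglets (7 females, 4 males) had the bile duct tied off, which keeps bile from leaving the liver, and the 11 SHAM piglets (5 females, 6 males) had surgery without ligation. Strain, litter and the unit of body weight were not given in the sources used here, and the labels state no mutation or drug for either group. The labels name 22 separate animals, so the spread between libraries includes the differences between animals of these groups. Differences from dissection and library preparation cannot be separated from these. Libraries held 14811464 to 20046909 counts in genes.

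Cholesterol in the brain is made there, because lipoprotein cholesterol does not cross the blood-brain barrier, and much of it leaves as an oxysterol that does cross. In human and mouse, neurons make 24-hydroxycholesterol with CYP46A1, and many cell types make 27-hydroxycholesterol with the mitochondrial enzyme CYP27A1. Bile acid synthesis proper belongs to the liver. There CYP7A1 opens the classical route and CYP27A1 with CYP7B1 the alternative route, HSD3B7 rearranges the sterol ring, and the side chain is activated and then shortened in peroxisomes before an amino acid is attached. The roles given below are those known in human and mouse.

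The tissue carried the markers of cerebellum, and part of the liver markers were near 0. GABRA6, a GABA receptor subunit of granule neurons, had 4979 to 6575 reads per library in BDL and 5894 to 8353 in SHAM (log2 fold change -0.10 ± 0.05, unadjusted p = 0.0406, edgeR adjusted p = 0.881). Of the 8 granule neuron markers, 5 lay on the lower side in BDL and 3 on the higher side (50.3% of all genes). Of these 8, 2 had an unadjusted p under 0.05 (4.96% of all genes) and 0 were called. CALB1, the calbindin gene of Purkinje cells, had 4883 to 8848 reads in BDL and 5644 to 8152 in SHAM. ALB, the albumin gene of hepatocytes, had 46 to 95 reads in BDL and 49 to 105 in SHAM, and APOB had 2 reads over all BDL and 0 over all SHAM libraries. Of the hepatocyte markers, 6 of 10 matched genes passed the count filter: ALB, APOA1, SERPINA1, FGB, TF and TTR. Oligodendrocytes and choroid plexus also express TF and TTR. On the higher side in BDL lay 3 of 6 (50.3% of all genes), and 1 of 6 had an unadjusted p under 0.05 (4.96% of all genes). That gene was SERPINA1 (log2 fold change 0.23 ± 0.11, unadjusted p = 0.0494, edgeR adjusted p = 0.881). BDL replicate 2 stood farthest from the other libraries, with a median Pearson r over genes of 0.974 against 0.979 to 0.985 for the other libraries.

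Which steps of the route were represented could be read from the counts. All 7 tested genes had reads in 22 of 22 libraries. CYP46A1 had 625 to 1090 reads per library, HSD3B7 had 582 to 957, CYP27A1 had 274 to 808 and CYP39A1 had 138 to 243. ACOX2 had 24 to 84 reads, CYP7B1 had 21 to 122 and SLC27A5 had 5 to 27, so the values of these 3 genes carry more counting error. Gene lengths over the counted exons are not used here, so levels are compared between animals within a gene and not between genes.

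CYP7A1 and CH25H were close to 0 in both groups. CYP7A1, whose activity sets the pace of bile acid production in liver (chromosome 4, 74343101 to 74372628 on Sscrofa11.1), had 5 reads in BDL, spread over 3 of 11 animals, and 6 reads in SHAM, spread over 4 of 11. No library had more than 3 reads. Scaled to the library totals (CPM) and pooled over animals this was 0.0262 CPM in BDL (95% exact Poisson interval 0.00851 to 0.0611) and 0.0311 CPM in SHAM (0.0114 to 0.0676), intervals that cover counting error only. The mean CPM of the groups did not differ detectably (two-sided permutation p = 0.963).

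CH25H, the cholesterol 25-hydroxylase of interferon-stimulated macrophages (chromosome 14, 101122318 to 101128622), had 5 reads in BDL, in 4 of 11 animals, and 2 reads in SHAM, both in 1 of 11 animals. Its pooled level was 0.0262 CPM (0.00851 to 0.0611) in BDL and 0.0104 CPM (0.00125 to 0.0374) in SHAM, with overlapping intervals (permutation p = 0.517). Both genes lie below 3 reads per library, which corresponds to 0.150 to 0.203 CPM, in nearly every animal, and no fold change is given. In the RefSeq table each overlaps another gene in position (SDCBP for CYP7A1, an uncharacterised locus for CH25H). Reads were counted on Ensembl genes, whose overlaps were not examined. The strand setting and the handling of reads in overlapping genes are not given. Whether such overlaps raised or lowered the counts of CYP7A1 and CH25H cannot be told. Of 9 other bile acid steps looked up, 7 matched a gene and 5 passed the count filter. BAAT, which attaches glycine or taurine to bile acids, did not pass, with 6 reads over all BDL and 7 over all SHAM libraries. SLC27A2, an acyl-CoA synthetase, did not pass either, with 13 and 24. Reads per library were 1764 to 2932 for HSD17B4, 1091 to 1791 for ABCD3, 434 to 903 for EPHX1, 369 to 699 for ACOT8 and 25 to 87 for AKR1D1. CYP8B1 and SCP2 were not matched to an identifier and were not analysed.

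**Figure D1:**
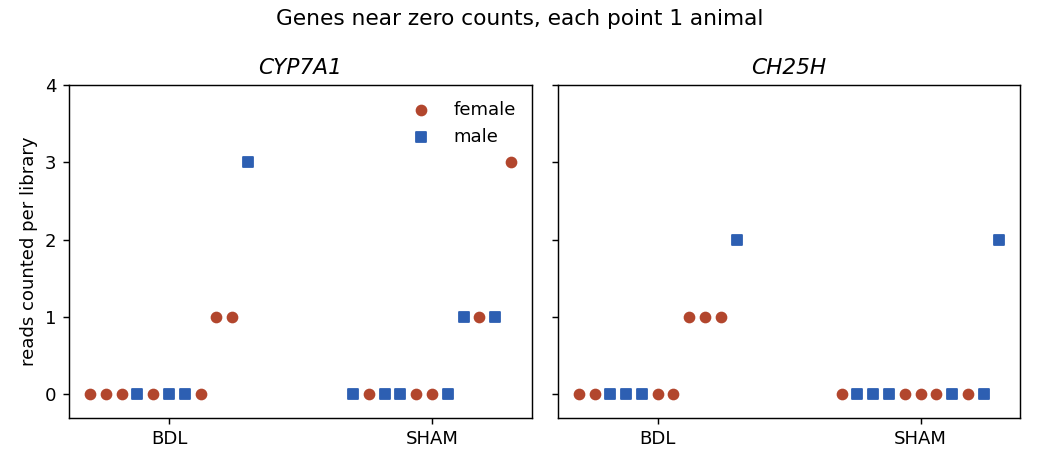
Reads counted per library (vertical axis) for CYP7A1 and CH25H in BDL and SHAM piglets, each point 1 animal, coloured by sex. No library of either group exceeds 3 reads, and most are at 0.

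None of the 7 tested enzymes passed the test for a change with bile duct ligation. edgeR's quasi-likelihood test with sex in the model called 0 of 7 at an adjusted p under 0.05, and over all genes it called 0 of 14994, or 0%. At an unadjusted p under 0.05 stood 0 of 7, against 4.96% of all genes. On the higher side in BDL lay 4 of 7 (50.3% of all genes), and the median log2 fold change was 0.02, against 0.00067 over all genes. The 95% interval of the change lay inside 1.5-fold either way for 5 of 7 genes (86.9% of all genes), the exceptions being CYP7B1 and SLC27A5, and inside 2-fold for 7 of 7 (98% of all genes).

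CYP46A1, the neuronal cholesterol 24-hydroxylase, had a lowest value of 41.3 CPM, a median of 51.3 and a highest of 58.1 in BDL, against 35.6, 51.5 and 58.5 in SHAM. The BDL range lay inside the SHAM range for 11 of 11 animals. Means were 51.5 ± 4.95 CPM in BDL and 49.6 ± 7.21 in SHAM (SD, n = 11 each), a log2 fold change of 0.04 ± 0.07 (SE). The interval ran from 0.922-fold to 1.14-fold (edgeR adjusted p = 0.951).

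CYP27A1, the mitochondrial sterol 27-hydroxylase (chromosome 15, 120809886 to 120852196), ran from 26.4 over a median of 32.2 to 44.9 CPM in BDL, and from 18.2 over 32.9 to 44.5 CPM in SHAM. The groups overlapped, and 10 of 11 BDL animals lay inside the SHAM range. The spread was wider in SHAM, where 3 animals (replicates 1, 6 and 10) stood below every BDL animal. That observation was made after the values were seen and was not tested. Means were 33.0 ± 5.51 CPM in BDL and 31.6 ± 8.09 in SHAM. The log2 fold change was 0.02 ± 0.12, with an interval from 0.848-fold to 1.21-fold (edgeR adjusted p = 0.985).

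The enzymes that add a hydroxyl group at carbon 7 of the oxysterols had estimates on the lower side that did not pass the test. CYP7B1, which acts on 27-hydroxycholesterol and 25-hydroxycholesterol, had a lowest value of 1.34, a median of 4.30 and a highest of 6.25 CPM in BDL, against 3.43, 4.97 and 7.13 in SHAM. The 3 lowest animals of the 22 were BDL piglets (replicates 2, 4 and 11), while the other 8 lay inside the SHAM range. Means were 4.12 ± 1.53 CPM in BDL and 4.91 ± 1.03 in SHAM, a log2 fold change of -0.25 ± 0.19. The interval ran from 0.638-fold to 1.11-fold (edgeR adjusted p = 0.881). Without BDL replicate 2 the log2 fold change was -0.17 ± 0.16, and without BDL replicates 2 and 4 together it was -0.10 ± 0.15, an alternative chosen after the values were seen.

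CYP39A1, which acts on 24-hydroxycholesterol (chromosome 7, 41345011 to 41425854), had 7.92, 9.74 and 13.3 CPM as lowest, median and highest values in BDL, and 8.79, 9.89 and 12.4 in SHAM. All 11 SHAM animals lay inside the BDL range, and means were 9.95 ± 1.78 CPM in BDL and 10.3 ± 1.22 in SHAM. The log2 fold change was -0.05 ± 0.10, with an interval from 0.840-fold to 1.11-fold (edgeR adjusted p = 0.947). It was -0.095 without BDL replicate 3 and -0.016 without BDL replicate 11, the lowest and highest values when 1 animal was left out.

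HSD3B7, the dehydrogenase that follows both routes of 7-hydroxylation (chromosome 3, 17459627 to 17463381), had 33.7, 40.7 and 51.0 CPM in BDL and 33.1, 39.7 and 47.1 CPM in SHAM. The highest values of all belonged to BDL replicates 2 and 4, the 2 animals lowest in CYP7B1, and means were 40.8 ± 5.75 CPM in BDL and 39.6 ± 4.66 in SHAM. The log2 fold change was 0.04 ± 0.08, from 0.921-fold to 1.15-fold (edgeR adjusted p = 0.942), and was 0.01 without BDL replicate 2 and -0.03 without both animals.

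Both groups also overlapped in the enzymes that activate and shorten the side chain. ACOX2, the peroxisomal branched-chain acyl-CoA oxidase that oxidises the bile acid side chain (chromosome 13, 40220952 to 40255967), had 1.51, 2.62 and 4.38 CPM in BDL and 1.59, 2.83 and 4.05 CPM in SHAM. Averages of 2.78 ± 0.837 CPM in BDL and 2.81 ± 0.750 in SHAM lay close together. Its log2 fold change was -0.01 ± 0.18 (0.768-fold to 1.28-fold, edgeR adjusted p = 0.989). SLC27A5, the bile acyl-CoA synthetase (chromosome 6, 63068880 to 63075246), had 0.276, 0.843 and 1.41 CPM in BDL and 0.466, 0.611 and 1.29 CPM in SHAM. The lowest 2 and the highest animal of the 22 were all BDL, and means were 0.836 ± 0.327 CPM in BDL and 0.709 ± 0.242 in SHAM. Its log2 fold change was 0.18 ± 0.24, and the interval was the widest of the 7, from 0.804-fold to 1.59-fold (edgeR adjusted p = 0.930). Its log2 fold change ran from 0.08 (without BDL replicate 5) to 0.30 (without SHAM replicate 6) when 1 animal was left out, and was 0.15 without BDL replicate 2 and 0.05 without BDL replicates 2 and 4.

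**Figure D2:**
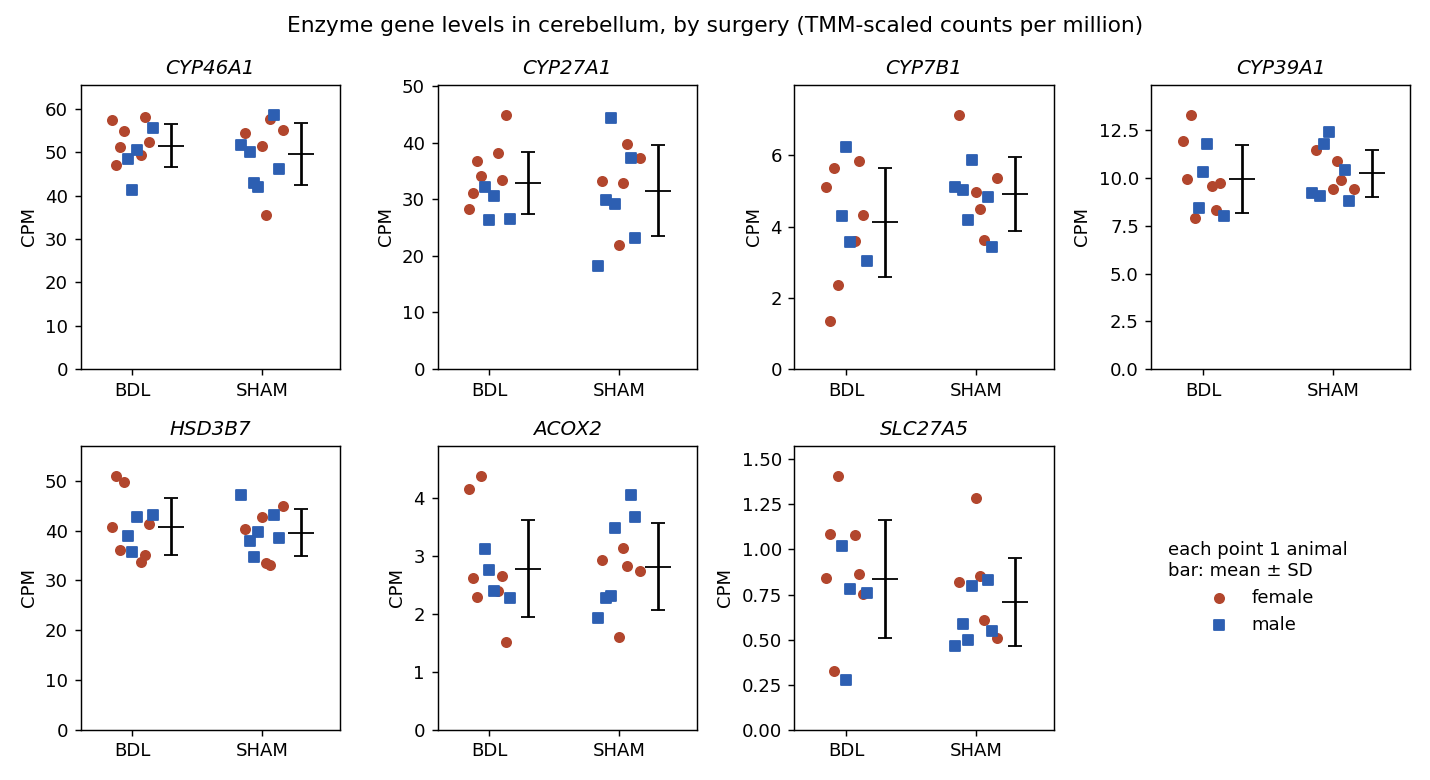
TMM-scaled CPM of the 7 tested enzyme genes (vertical axes, from 0) in BDL and SHAM piglets, each point 1 animal, coloured by sex, with mean ± SD beside each group (n = 11 each). The groups overlap in every panel, and the 2 lowest CYP7B1 values are BDL females.

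Ratios of paired enzymes within a library were tested as well, without the sex term used for the fold changes, and 0 of 3 passed. CYP46A1 over CYP27A1, the 2 side chain hydroxylases, had a mean log2 ratio of 0.65 ± 0.25 in BDL and 0.68 ± 0.45 in SHAM (difference -0.03, permutation p = 0.855). CYP7B1 over CYP27A1 was at -3.06 ± 0.67 in BDL and -2.64 ± 0.51 in SHAM (difference -0.42, permutation p = 0.113, adjusted over the 3 ratios 0.338). Without BDL replicate 2 that difference was -0.28, and without BDL replicates 2 and 4 it was -0.19. CYP39A1 over CYP46A1 was at -2.37 ± 0.31 in BDL and -2.26 ± 0.33 in SHAM (difference -0.12, permutation p = 0.393, adjusted 0.589), and was -0.062 without SHAM replicate 7.

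The rest of the pathway was described from lists of further genes, and 0 of their members passed the test (0% of all genes). Of the other bile acid steps, 3 of 5 tested genes were on the positive side (50.3% of all genes), with a median of 0.0036 on the log2 scale. An unadjusted p under 0.05 was found for 1 of 5 (4.96% of all genes). That gene was HSD17B4, the peroxisomal enzyme that acts after ACOX2, with 113 to 158 CPM in BDL and 134 to 162 in SHAM, ranges that overlapped. Its log2 fold change was -0.12 ± 0.05 (unadjusted p = 0.0357, edgeR adjusted p = 0.881). AKR1D1, the steroid reductase of the liver route, averaged 3.19 ± 0.963 CPM in BDL animals and 3.27 ± 0.751 CPM in SHAM animals, a change of 0.0036 ± 0.16.

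The electron partners that the P450 enzymes need lay on the higher side in 3 of 3 tested genes (50.3% of all genes). Their log2 fold changes were 0.06 or less. POR, the reductase of the microsomal P450 enzymes such as CYP46A1 and CYP7B1, had the smallest p among them, with 73.9 ± 8.75 CPM in BDL and 70.6 ± 5.74 in SHAM (0.06 ± 0.06, unadjusted p = 0.343). FDX1 and FDXR, which pass electrons to mitochondrial CYP27A1, were at 0.0010 ± 0.10 and 0.01 ± 0.09. Genes that bring cholesterol into mitochondria had 3 of 5 on the higher side (50.3% of all genes), with a median of 0.05. NPC2, a lysosomal cholesterol carrier, was at 0.06 ± 0.11.

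Oxysterol storage, modification and sensing genes had 7 of 17 on the higher side (50.3% of all genes), with a median of -0.02. An unadjusted p under 0.05 was found for 0 of 17 (4.96% of all genes). The smallest p there belonged to OSBPL8, an oxysterol-binding protein relative of membrane contact sites, averaging 49.6 ± 5.66 CPM in BDL animals and 53.3 ± 4.24 CPM in SHAM animals (-0.09 ± 0.06 on the log2 scale, unadjusted p = 0.159). GPR183, the receptor of the oxysterol that CH25H and CYP7B1 make together, was under the count filter, with 41 reads over all BDL and 53 over all SHAM libraries. Of the regulators of hepatic synthesis, 2 of 7 passed the filter, FGFR4 and KLB. On the higher side lay 2 of 2 (50.3% of all genes), and 1 of 2, KLB, had an unadjusted p under 0.05 (4.96% of all genes). KLB, the co-receptor for FGF19, ran from 8.35 to 14.4 CPM in BDL and from 7.11 to 10.04 in SHAM, with means of 10.9 ± 2.06 and 8.82 ± 1.01 CPM in BDL and SHAM (0.29 ± 0.10, unadjusted p = 0.00821, edgeR adjusted p = 0.881). NR1H4, the bile acid receptor gene, had 19 reads over all BDL and 29 over all SHAM libraries.

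**Figure D3:**
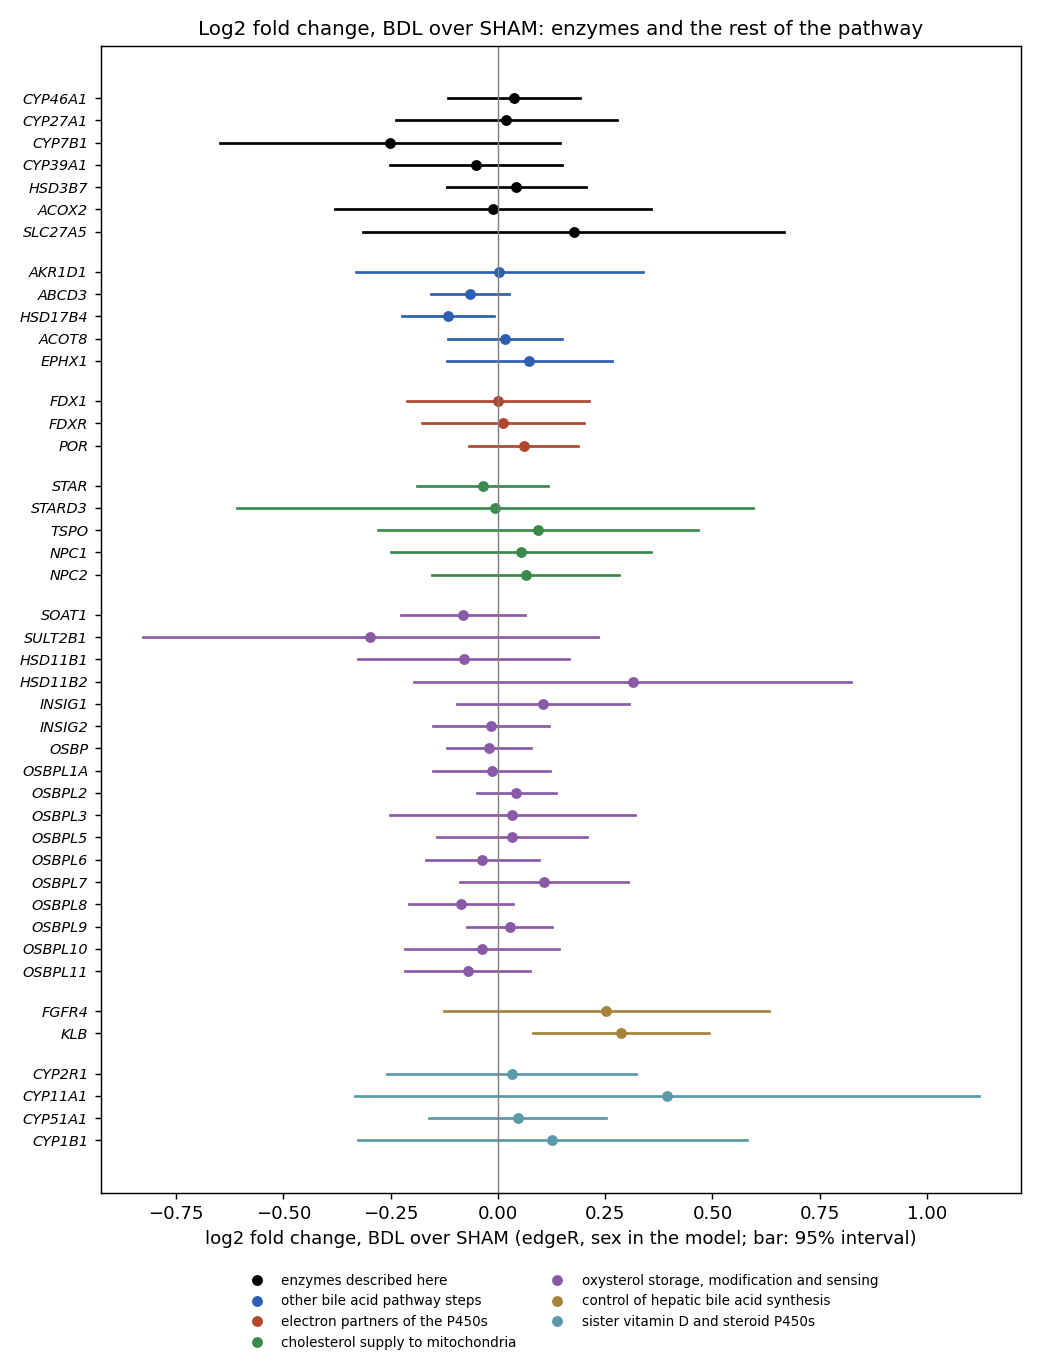
Log2 fold change of BDL over SHAM (horizontal axis; points are edgeR estimates with sex in the model, bars are 95% intervals) for the 7 tested enzymes and the tested genes of the 6 further lists. The intervals of HSD17B4 (below 0) and KLB (above 0) leave out 0, at adjusted p = 0.881 each.

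No difference between the sexes passed the test either. Between females and males edgeR called 0 of 7 (0.06% of all genes), 5 of 7 were higher in females (49.7% of all genes), and 0 of 7 had an unadjusted p under 0.05 (5.97% of all genes). The 2 smallest p values belonged to CYP27A1, with means of 34.3 ± 5.84 CPM for the 12 females and 29.8 ± 7.31 CPM for the 10 males (0.20 ± 0.13 on the log2 scale, edgeR adjusted p = 0.889), and to SLC27A5, at 0.871 ± 0.311 and 0.656 ± 0.219 CPM in females and males (0.37 ± 0.24, edgeR adjusted p = 0.889). The difference in the effect of ligation between the sexes was called for 0 of 7 genes (0% of all genes), and 0 of 7 had an unadjusted p under 0.05 (4.6% of all genes), their p lying between 0.442 and 0.975. CYP7B1 averaged 4.03 ± 1.70 CPM in 7 BDL females and 5.12 ± 1.30 in 5 SHAM females, and 4.29 ± 1.41 in 4 BDL males and 4.74 ± 0.84 in 6 SHAM males.

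Body weight ran from 1620 to 2560 with an SD of 286 over the 22 animals. With sex and surgery in the model, edgeR called 0 of 7 genes per SD of weight (0% of all genes), 4 of 7 slopes were positive (50.3% of all genes), and 2 of 7 had an unadjusted p under 0.05 (7.39% of all genes). CYP7B1 had a slope of 0.26 ± 0.09 log2 units per SD (unadjusted p = 0.0107, edgeR adjusted p = 0.516). Without BDL replicates 2 and 4, which weighed 1820 and 1620, the slope was 0.13 ± 0.08, and without BDL replicate 2 alone it was 0.20 ± 0.08. SLC27A5 had a slope of -0.30 ± 0.11 (unadjusted p = 0.0127, edgeR adjusted p = 0.532), -0.31 ± 0.12 without BDL replicate 2 and -0.27 ± 0.14 without the same 2 animals. Beside these slopes stand those of 4 marker lists, of which 0 genes were called. Positive slopes were found for 7 of 7 astrocyte markers (median 0.09, 1 with an unadjusted p under 0.05) and 9 of 9 microglia and macrophage markers (median 0.16, 4 under 0.05). Negative slopes were found for 4 of 5 choroid plexus and ependyma markers (median -0.59, 3 under 0.05) and 3 of 4 blood markers (median -0.45, 3 under 0.05). Oligodendrocyte precursor markers had 6 of 6 positive slopes (median 0.05, 1 under 0.05). Granule neuron markers had 6 of 8 negative slopes (median -0.03, 2 under 0.05). Hepatocyte markers had 4 of 6 positive slopes (1 under 0.05), and the remaining lists had 0 genes under 0.05. The part of any of these cells in the CYP7B1 and SLC27A5 slopes was not tested.

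The enzymes differed in how much they varied between the libraries of the animals. The biological coefficient of variation that edgeR estimated, with sex and surgery taken out, was 12.2% for CYP46A1, 12.7% for HSD3B7 and 15.04% for CYP39A1, near the median of all tested genes (13.3%). It was 19.7% for CYP27A1, 25.6% for ACOX2, 26.9% for SLC27A5 and 29.5% for CYP7B1. Genes of like abundance had a fitted value of 24.5% for CYP7B1 and 13.4% for CYP27A1, below those of the 2 enzymes, and of 27.1% for ACOX2, 30.9% for SLC27A5 and 19.4% for CYP39A1, above theirs. Without BDL replicate 2, CYP7B1 had 23.8% against a fitted 23.7%, and HSD3B7 had 11.8%. No pair of enzymes was shown to move together: of 21 pairs over the 22 animals, 0 had a Pearson correlation with a permutation p that held after adjustment (smallest adjusted p = 0.392).

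To see which cell types the spread followed, the log2 CPM of each of the 7 enzymes was set against the mean log2 CPM of 12 marker lists, which gave 84 relations. In bulk tissue, fewer cells of a type and less RNA per cell cannot be told apart. By Pearson correlation 3 of 84 passed after adjustment, and 1 of 84 also passed by Spearman correlation.

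That 1 relation tied CYP7B1 to the astrocyte and Bergmann glia markers (7 genes, among them GFAP, AQP4 and SLC1A3), with Pearson r = 0.875 (permutation p = 2.00e-05, adjusted p = 0.00168) and Spearman rho = 0.757 (permutation p = 0.00011, adjusted p = 0.00924). Leaving out the 2 animals with scores farthest from the median gave r = 0.663 (permutation p = 0.0016). Without BDL replicate 2 alone it was 0.765. Within the 11 BDL animals r was 0.927 (permutation p = 0.00022), or 0.832 without BDL replicate 2, and within the 11 SHAM animals r was 0.643 (permutation p = 0.0325). The marker score was 6.81 in BDL replicate 2 and 7.10 in BDL replicate 4, the lowest of the 22 and the same 2 animals lowest in CYP7B1.

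The score was 7.38 ± 0.25 in BDL, from 6.81 to 7.64, and 7.50 ± 0.15 in SHAM, from 7.29 to 7.73. Of the 7 astrocyte markers, 5 lay on the lower side in BDL and 2 on the higher side, where 50.3% of all genes lay. Their median log2 fold change was -0.08, and 0 passed the test (0% of all genes). The 2 on the higher side were GFAP (0.06 ± 0.13) and GJA1 (0.02 ± 0.08). AQP4, the water channel of astrocyte endfeet, averaged 844 ± 145 CPM in BDL and 903 ± 118 in SHAM, and SLC1A3, the glutamate transporter of Bergmann glia, at 934 ± 134 and 1006 ± 74.1 CPM in BDL and SHAM. The part of these cells in the lower CYP7B1 values of BDL was not tested.

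ACOX2 followed the choroid plexus and ependyma markers by Pearson (r = 0.716, permutation p = 0.00021, adjusted p = 0.00882), and Spearman rho was 0.563 (permutation p = 0.00742, adjusted p = 0.182). Without the 2 animals farthest from the median score r was 0.582 (permutation p = 0.00739), within BDL r was 0.787 (permutation p = 0.00575), and within SHAM r was 0.641 (permutation p = 0.0347). These markers swung widely between animals: TTR, which encodes transthyretin and is abundant in choroid plexus, had 146 to 26722 reads in BDL and 25 to 17353 in SHAM. The 2 animals with the highest marker scores, BDL replicates 4 and 1 (5.86 and 5.29), also had the 2 highest ACOX2 values. The hepatocyte list, which shares TTR, gave r = 0.649 with ACOX2 (permutation p = 0.00103, adjusted p = 0.0288). With TTR left out of it, an alternative chosen after the values were seen, r was 0.212 (permutation p = 0.345). CYP27A1, picked as the enzyme with the largest r for the same 5 genes, had r = 0.528 (permutation p = 0.0111, unadjusted). Its Spearman rho with these 5 genes was 0.420 (permutation p = 0.0525, unadjusted). Neither p allows for picking the largest r or for choosing the list after the values were seen. With the full hepatocyte list CYP27A1 had r = 0.265 (permutation p = 0.232, adjusted p = 0.573).

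CYP46A1 and CYP27A1 followed none of the 12 lists after adjustment. CYP46A1 had r = 0.209 with granule neuron markers and -0.0811 with Purkinje cell markers, and CYP27A1 had r = 0.166 with oligodendrocyte markers and 0.283 with microglia markers. The largest r of CYP46A1 was 0.366, with oligodendrocyte precursor markers (adjusted permutation p = 0.465). That of CYP27A1 was 0.380, with pericyte and smooth muscle markers (adjusted permutation p = 0.465). The oligodendrocyte score varied by 2.04 log2 units between animals, from 7.10 to 9.15 in BDL and from 7.46 to 8.95 in SHAM.

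**Figure D4:**
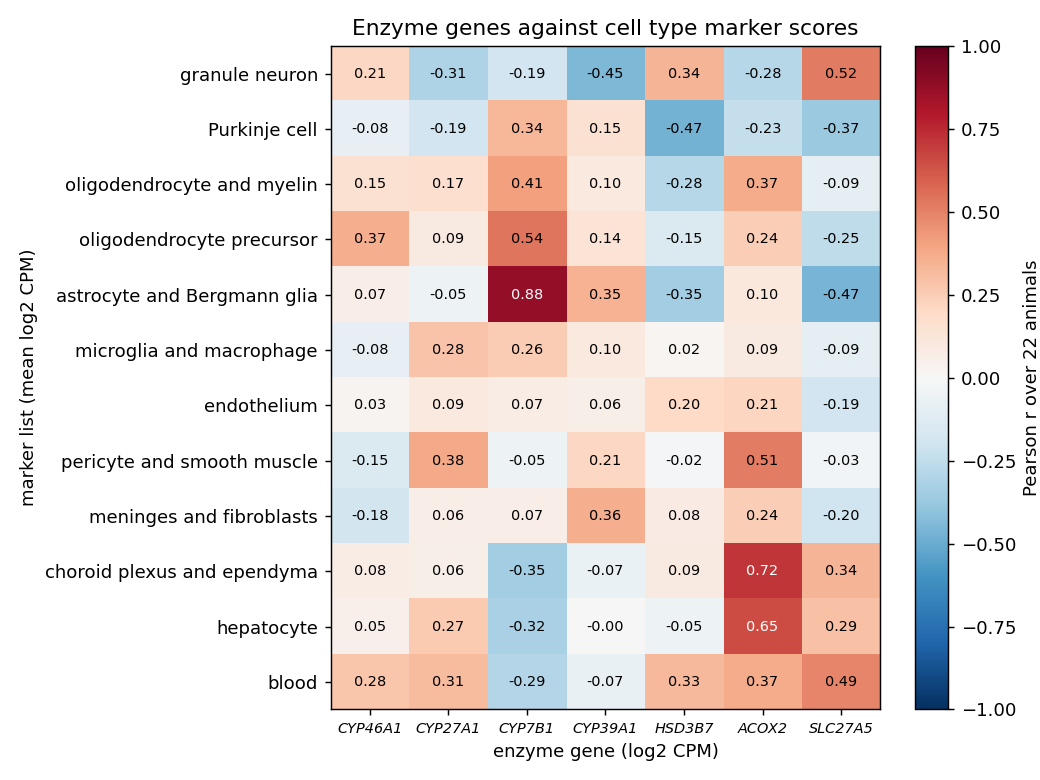
Pearson correlation over 22 animals (colour and printed value, from -1 to 1) of each tested enzyme's log2 CPM (columns) with the mean log2 CPM of each marker list (rows). CYP7B1 with astrocyte and Bergmann glia markers (0.875) and ACOX2 with choroid plexus and ependyma markers (0.716) are the largest of the 84.

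The genes whose log2 CPM was most like that of each enzyme over the 22 animals were picked as the 3 highest Pearson r among 12316 genes with a symbol. Since they were chosen for r, no p is given. For CYP7B1 they were PREX2 (r = 0.900), NTRK2, the BDNF receptor gene (0.895), and PCYOX1 (0.889), and without BDL replicate 2 their r was 0.803, 0.785 and 0.780. For ACOX2 they were KCNJ13, a potassium channel gene that is also in the choroid plexus list (0.817), SLIT2 (0.794) and SLC2A12 (0.793). HSD3B7 was most like PI4KB (0.866), RNF40 (0.834) and AMZ1 (0.804), which had 0.844, 0.835 and 0.755 without BDL replicate 2. CYP27A1 was most like TMSB4X (0.813), PINK1 (0.809) and PKIG (0.792). CYP46A1 was most like CORO2B (0.762), NAPB, a SNAP protein gene of synaptic vesicle fusion (0.758), and RPH3AL (0.731). SLC27A5 was most like NPLOC4 (0.763), PFKFB4 (0.760) and TPM1 (0.748), and CYP39A1 most like NOC3L (0.745), ANXA4 (0.678) and RAP1B (0.671).

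**Figure D5:**
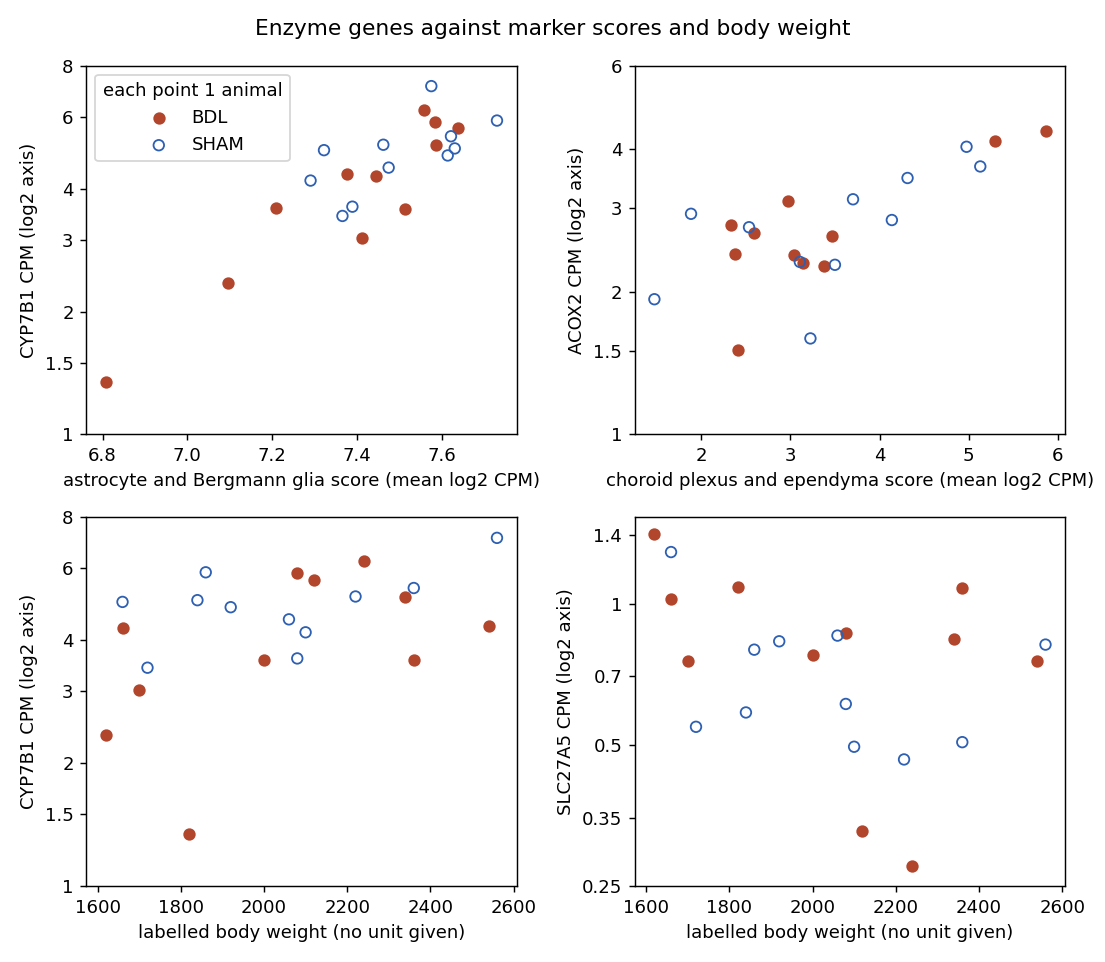
CPM on a log2 axis of CYP7B1 against the astrocyte and Bergmann glia score, of ACOX2 against the choroid plexus and ependyma score (scores are mean log2 CPM), and of CYP7B1 and SLC27A5 against the labelled body weight, each point 1 animal, BDL filled and SHAM open. The lowest CYP7B1 value, 1.34 CPM, belongs to the animal with the lowest astrocyte score, 6.81.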

How the data were processed

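For each animal the authors deposited a table of raw counts by Ensembl identifier. Trim Galore, HISAT2, HTSeq, DESeq2 and the build Sscrofa11.1 stand in the submitters' processing notes, and versions and the strand setting were not given in the sources used here. The 5 lines per table for reads that the counting did not assign to a gene (29.9% to 34.6% of reads) were left out. Gene names came from a table of Ensembl identifiers (15029 of 31907 matched) and positions from a RefSeq table of the same build, which gave none for CYP46A1 and CYP7B1.

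Genes were kept by filterByExpr of edgeR 4.0.16 (R 4.3.3; minimum count 10, minimum total 15) and scaled by TMM, with factors of 0.975 to 1.02. CPM of tested genes are TMM-scaled; those of CYP7A1 and CH25H use library totals. edgeR's robust quasi-likelihood test was fitted on all genes, with sex and surgery; weight was added for its slope, and the interaction came from a model of 4 groups. P-values were Benjamini-Hochberg adjusted over all 14994 genes. Scores and ratios used log2 CPM with a prior count of 2. Correlations, ratios and genes under the filter were tested by two-sided permutation with 100000 resamples, without sex. DESeq2 1.42.0 and limma 3.58.1 were alternatives. The 231 pairs of libraries differed by a chi-square per degree of freedom of 7.20 to 51.9, beyond sampling noise.

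The members, lists and tests were chosen with earlier results of these data known. All 10 members are named; of each pathway list the text names genes with an unadjusted p under 0.05, or otherwise the gene with the smallest p, and a few further genes chosen after their values were seen.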

Additional observations from a re-analysis of the deposited data

Results flagged for a closer look

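Within the 4 groups of sex and surgery, 28 sets of values (7 enzymes in 4 groups) were searched for an animal far from its group, and 2 were found. Chance alone marks about 1 in 20 such sets. CYP46A1 was at 35.6 CPM in SHAM replicate 7, while the next lowest of the 5 SHAM females was at 51.5. ACOX2 was at 1.59 CPM in SHAM replicate 6, while the next lowest SHAM female was at 2.74.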

How the results depend on the processing

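The treatment call count was 0 of all genes in the main edgeR fit (743 at an unadjusted p under 0.05), 0 with limma (741) and 1 with DESeq2, TPD52L1 (769), and 0 to 0 when each animal was left out in turn. Genes called between the sexes numbered 9, against 31 with no count filter, 25 without BDL replicates 2 and 4 together, and 7 to 26 when each animal was left out. Genes called for body weight numbered 0, against 28 without BDL replicates 2 and 4, and 0 to 9 when each animal was left out (9 without SHAM replicate 1, 3 without BDL replicate 4). Calls within females, within males and for the interaction were 0 under each alternative run.

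The enzymes' log2 fold changes between BDL and SHAM were recomputed 217 times (31 alternatives for each of 7); 0 were called, and 15 changed sign, in 4 genes. Leaving out BDL replicates 2 and 4 together turned HSD3B7 to -0.031, its weight slope to 0.021 and the CYP46A1 weight slope to -0.0037. Leaving out each animal gave -0.018 to 0.068 for CYP46A1 (lowest without SHAM replicate 7), -0.042 to 0.082 for CYP27A1, -0.090 to 0.038 for ACOX2, -0.095 to -0.016 for CYP39A1, -0.36 to -0.17 for CYP7B1, 0.084 to 0.30 for SLC27A5 and 0.011 to 0.071 for HSD3B7. Between females and males it gave -0.063 to 0.13 for CYP7B1, -0.011 to 0.071 for CYP39A1, -0.037 to 0.021 for HSD3B7 and -0.096 to 0.043 for ACOX2. The CYP46A1 weight slope ranged from -0.0092 to 0.023 and the ratio of CYP46A1 over CYP27A1 from -0.10 to 0.053. The ratio of CYP7B1 over CYP27A1 ranged from -0.52 to -0.28 and that of CYP39A1 over CYP46A1 from -0.16 to -0.062. The cause was not tested. Alternatives without BDL replicates 2 and 4 together, values by sex and weight under other settings, the hepatocyte list without TTR, and variation and correlations without BDL replicate 2 were chosen after seeing the data. No paired analysis was possible because the replicate numbers were given in accession order and mark no shared litter or day. Depth limits SLC27A5, CYP7B1 and ACOX2 most, and CYP7A1 and CH25H could not be fitted.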

Other observations

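A further list held 7 other P450 genes, of which CYP2R1, CYP11A1, CYP51A1 and CYP1B1 were tested. Of these, 4 of 4 lay on the positive side of BDL over SHAM, against 50.3% of all genes. Their median log2 fold change was 0.09, and 0 were called (0% of all genes). CYP11A1, which makes pregnenolone from cholesterol, had the smallest p: its range was 0.524 to 2.43 CPM in BDL and 0.234 to 1.89 CPM in SHAM (0.39 ± 0.35 on the log2 scale, unadjusted p = 0.276). CYP51A1, an enzyme of cholesterol synthesis, averaged 205 ± 37.8 CPM in BDL and 198 ± 28.6 in SHAM. CYP27B1 and CYP24A1, which make and break down active vitamin D, were under the count filter, with 75 and 44 reads over all BDL libraries, against 64 and 59 over all SHAM libraries.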
